A study of Mus with 4 samples.

Results

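The 10 genes described here encode the interleukin-6 (IL-6) arm of cytokine signalling as it can be read from cellular RNA. They are the ligand Il6, the receptor genes Il6ra, Il6st and Osmr, the transcription factor Stat3, and 5 genes that the pathway induces, Socs3, Cebpb, Cebpd, Bcl3 and Pim1. They were taken by Ensembl identifier from the deposited gene count table, and all 10 were found among its 54532 identifiers. The RNA came from liver sinusoidal endothelial cells (LSECs), which form the wall of the hepatic sinusoids, of mice given carbon tetrachloride (CCl4), a toxin that injures hepatocytes. The control group (CTL) comprised 2 libraries, CTL1 and CTL2, and the Pofut1 knockout group (P1KO) comprised 2 libraries, KO1 and KO3, and both groups had received CCl4. The series asks how endothelial POFUT1, an enzyme that places O-linked fucose on EGF-like repeats such as those of Notch receptors, acts on LSECs and hepatic stellate cells, and its title names fibrinogen synthesis.

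Per the series title the deletion was endothelial, and the genotype labels give Pofut1 knockout. The labels give liver as the tissue and LSECs as the cell type, but their extraction protocol names heart ventricles, and this was not settled by markers. The sources used here do not give the Cre driver, the strain or age of the mice, the dose and timing of CCl4, or whether the libraries of a group are from separate mice. P-values therefore reflect library-to-library spread, and this spread may be technical. The knockout titles carry the numbers 1 and 2, and the column KO3 was assigned to the P1KO group by its name alone. Library totals ranged from 17464769 to 17918834 counts. The table carries no gene symbols and the reference gene table no Ensembl identifiers, so Pofut1, the markers of LSECs and of other cell types, and further genes of the pathway are not analysed here, and the symbols of the 10 genes are those supplied with their identifiers. Mice without CCl4 are not analysed here either, so the values compare genotypes among CCl4-treated mice.

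IL-6 is a cytokine that binds its receptor subunit, encoded by Il6ra, and the complex then engages the signal transducer gp130, encoded by Il6st. Oncostatin M uses the same transducer, paired with the subunit encoded by Osmr. Kinases of the JAK family bound to gp130 phosphorylate STAT3, which enters the nucleus and induces, among others, Socs3, whose product blocks the receptor and so ends the signal. In hepatocytes this route drives the acute phase response, including transcription of the fibrinogen genes.

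Of the 5 genes listed as induced, 4 were lower in P1KO, while Stat3 itself was higher. Whether these RNA changes reflect a change in IL-6 signalling was not tested. Of the 10 genes, 7 changed at an adjusted p below 0.05 in edgeR's quasi-likelihood test with Benjamini-Hochberg adjustment over 15510 tested genes, 6 of them lower (Cebpb, Pim1, Cebpd, Osmr, Il6ra, Socs3) and 1 higher (Stat3). Over all tested genes 19.5% were called, 9.84% lower and 9.68% higher. The 10 genes were proposed with earlier results of these data known, so an excess over such shares may come from that choice. Of the 8 genes with a mean level at or above the median of the tested genes, 18.8 counts per 1000000 reads (CPM), 6 were called, against 27.6% of all tested genes in that range. The median log2 fold change, P1KO against CTL, was -0.36 over the 10 genes and -0.01 over all tested genes. The groups did not overlap for any of the 10 genes, with P1KO lower for 7 and higher for 3. Non-overlap occurred for 62.6% of tested genes, 32.1% with P1KO lower and 30.5% with P1KO higher. In bulk RNA, fewer cells of a type and less RNA per cell cannot be told apart.

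These calls drew on the small spread between the controls. The shares of all tested genes in the following fits are of calls at an adjusted p below 0.05. No share of all tested genes was computed at an unadjusted p below 0.05, so counts at that threshold have no background. In edgeR without CTL1, 0 of the 10 genes were called, 4 had an unadjusted p below 0.05, and 0.832% of all tested genes were called. Without CTL2, 0 were called, 5 had an unadjusted p below 0.05, and the background was 0.774%. DESeq2 called 2 of the 10, Cebpb and Pim1, in the absence of either CTL library, against a background of 4.81% without CTL1 and 4.5% without CTL2.

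**Figure D1:**
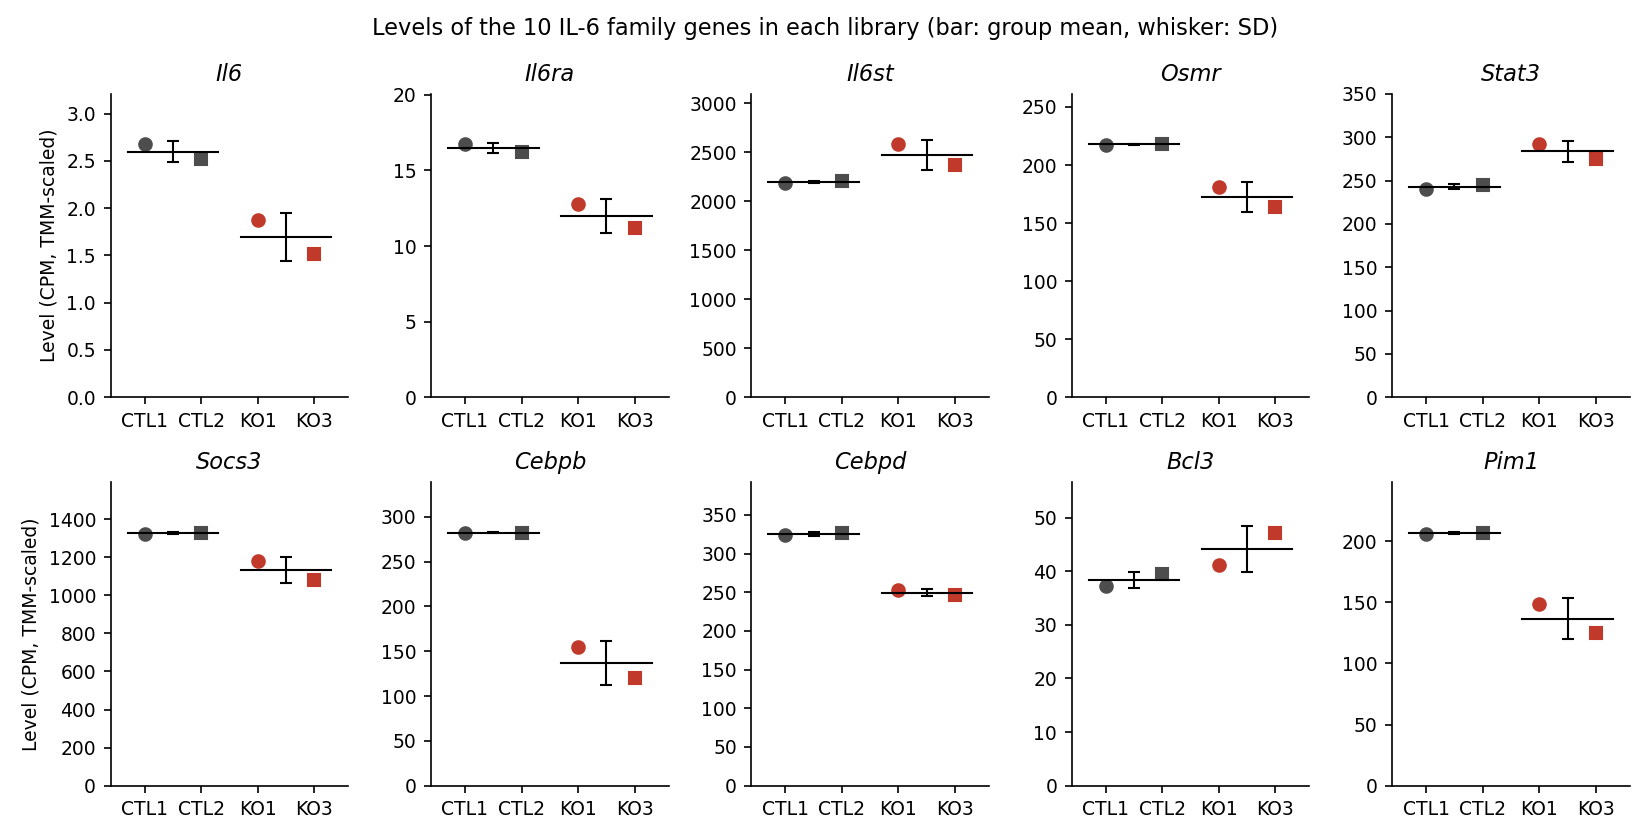
Level of each gene in CPM (vertical axis, from 0, a separate scale per gene) in the 4 libraries, with circles for CTL1 and KO1, squares for CTL2 and KO3, a bar for the group mean and a whisker for the SD (n = 2). The CTL libraries nearly coincide for most genes, and both P1KO libraries lie below them for 7 genes and above them for 3 (Il6st, Stat3, Bcl3).

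Levels are CPM scaled with TMM factors. They do not allow for transcript length, so they are compared between libraries and not between genes. Positions are those of the gene spans in RefSeq's GRCm38.p6 table, the assembly that mm10 names.

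The ligand gene Il6 (ENSMUSG00000025746, chromosome 5, 30013114 to 30019975) had the fewest reads of the 10, and its difference did not pass. The CTL libraries held 47 and 45 reads (2.68 and 2.52 CPM), and 33 reads were counted in KO1 and 27 in KO3 (1.88 and 1.52 CPM). Both P1KO libraries were below both CTL libraries, and the log2 fold change was -0.61 ± 0.29 (SE, edgeR adjusted p = 0.189). From the summed reads the ratio of P1KO to CTL was 0.653, with a 95% exact binomial interval of 0.463 to 0.913. This interval and those that follow cover counting error only.

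Il6ra (ENSMUSG00000027947, chromosome 3, 89869324 to 89913196), the subunit that binds IL-6, fell in P1KO. Its level was 16.7 CPM in CTL1 and 16.2 in CTL2, against 12.8 in KO1 and 11.2 in KO3, from between 199 and 294 reads per library. The group means were 16.5 ± 0.359 CPM in CTL and 12.0 ± 1.13 CPM in P1KO (SD, n = 2 each). This was 1.38-fold lower in P1KO (log2 fold change -0.46 ± 0.12 SE, edgeR adjusted p = 0.0395). This call was close to the threshold. With all 4 libraries, 4 of 8 other scalings, filters and tests kept the adjusted p below 0.05, and DESeq2 gave 0.121.

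Osmr (ENSMUSG00000022146, chromosome 15, 6813568 to 6874968), the oncostatin M receptor subunit, also fell. The CTL libraries stood at 217 and 218 CPM, and KO1 and KO3 at 181 and 163 CPM. The mean went from 218 ± 0.405 CPM to 172 ± 12.6 CPM (SD, n = 2 each), 1.26-fold lower in P1KO (log2 fold change -0.34 ± 0.07 SE, edgeR adjusted p = 0.0122). Its adjusted p was below 0.05 in all 8 other scalings, filters and tests run on the 4 libraries, at most 0.0411, and 0.188 without CTL1 and 0.189 without CTL2 in edgeR.

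Il6st (ENSMUSG00000021756, chromosome 13, 112464070 to 112506860), the shared transducer gp130, had higher values in both P1KO libraries, with 2581 CPM for KO1 and 2363 CPM for KO3. CTL1 was at 2184 CPM and CTL2 at 2202 CPM, and each library held between 38343 and 45427 reads of it. The log2 fold change was 0.17 ± 0.05 (SE) with an edgeR adjusted p of 0.0524, just outside the threshold. It was 0.0454 with DESeq2 size factors, 0.0387 with library totals and 0.0165 with a separate spread per group in limma-voom. Counting error was small, with a ratio of 1.13 and an interval of 1.12 to 1.14, whereas KO3 was at 0.916 of KO1, a spread beyond counting error (interval 0.903 to 0.928).

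Stat3 (ENSMUSG00000004040, chromosome 11, 100886806 to 100939594) was the 1 gene of the 10 that rose past the threshold. The controls were at 241 CPM (CTL1) and 245 CPM (CTL2), below KO1 at 292 CPM and KO3 at 275 CPM. The mean was 243 ± 2.94 CPM in CTL and 284 ± 11.8 CPM in P1KO (SD, n = 2 each), 1.17-fold higher (log2 fold change 0.22 ± 0.06 SE, edgeR adjusted p = 0.0298). The adjusted p was 0.0644 with cyclic loess scaling and 0.0686 with no filter on low counts. Transcript level says nothing of STAT3 phosphorylation, which was not measured in these libraries.

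Socs3 (ENSMUSG00000053113, chromosome 11, 117966079 to 117970336), the feedback inhibitor, moved the opposite way. It stood at 1323 and 1329 CPM in the CTL libraries, 1180 CPM in KO1 and 1082 CPM in KO3. The mean fell from 1326 ± 3.94 CPM to 1131 ± 69.2 CPM (SD, n = 2 each), 1.17-fold lower in P1KO (log2 fold change -0.23 ± 0.05 SE, edgeR adjusted p = 0.0231). Of all tested genes, 27.2% had a lower log2 fold change. With no filter on low counts its adjusted p was 0.0555.

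Cebpb (ENSMUSG00000056501, chromosome 2, 167688915 to 167690432) had the deepest fall of the 10. It encodes C/EBP beta, a transcription factor known as a nuclear factor of the IL-6 response and as an activator of acute phase promoters. CTL1 held 4944 reads and CTL2 held 5042, against 2718 for KO1 and 2135 for KO3, which is 282, 282, 154 and 120 CPM. The P1KO libraries differed from each other, yet the gap between the nearest libraries of the 2 groups, 0.87 log2, was larger than the 0.36 log2 between KO1 and KO3. The mean fell from 282 ± 0.507 CPM to 137 ± 24.4 CPM (SD, n = 2 each), 2.06-fold (log2 fold change -1.04 ± 0.11 SE, edgeR adjusted p = 0.00102). Of all tested genes, 4.52% had a lower log2 fold change. Against a minimum change of 1.5-fold it was the 1 gene of the 10 to pass, at an adjusted p of 0.0286 in edgeR, where 1.74% of all tested genes passed. In edgeR the adjusted p of Cebpb became 0.0702 when CTL1 was left out and 0.0699 when CTL2 was.

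Cebpd (ENSMUSG00000071637, chromosome 16, 15887286 to 15889545) encodes C/EBP delta, a related factor that cytokines induce rapidly. It fell by less, and its P1KO libraries were the closest pair among the 10 genes. The control libraries were at 324 and 327 CPM, KO1 at 253 CPM and KO3 at 246 CPM. The mean fell from 326 ± 2.30 CPM to 250 ± 4.64 CPM (SD, n = 2 each), 1.30-fold (log2 fold change -0.38 ± 0.05 SE, edgeR adjusted p = 0.00281). Here the nearest libraries of the groups were 0.36 log2 apart and KO1 and KO3 only 0.04, so the spread within P1KO was far smaller than the difference. The span of Cebpd overlaps that of the protein-coding gene Spidr, and reads shared by both may have been lost or misassigned in the authors' counting.

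Pim1 (ENSMUSG00000024014, chromosome 17, 29490785 to 29496111) encodes a serine/threonine kinase that promotes survival and proliferation. It was at 206 and 207 CPM in the CTL libraries, 149 CPM in KO1 and 125 CPM in KO3. The mean fell from 206 ± 0.820 CPM to 137 ± 17.1 CPM (SD, n = 2 each), 1.51-fold (log2 fold change -0.60 ± 0.09 SE, edgeR adjusted p = 0.00359). Against a minimum change of 1.2-fold Pim1 and Cebpb passed, with 7.74% of all tested genes. Without CTL1 and without CTL2 the edgeR adjusted p of Pim1 was 0.116 and 0.121.

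Bcl3 (ENSMUSG00000053175, chromosome 7, 19808462 to 19822824) encodes an atypical, nuclear IkB protein that binds NF-kB subunits. The values were 37.2 CPM for CTL1, 39.5 CPM for CTL2, 41.1 CPM for KO1 and 47.2 CPM for KO3. The 4 libraries nearly met, since CTL2 and KO1 differed by 0.06 log2, less than the 0.08 log2 between CTL1 and CTL2. The log2 fold change of 0.20 ± 0.09 (SE) did not pass (edgeR adjusted p = 0.159), and 1 library moved it by over 1.5 times. Without KO3 it was 0.10 (adjusted p = 0.430), and without KO1 it was 0.30 (adjusted p = 0.00201), in a fit that called 34.8% of all tested genes. It was 0.16 without CTL1 (adjusted p = 0.558) and 0.24 without CTL2 (adjusted p = 0.393), all in edgeR.

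**Figure D2:**
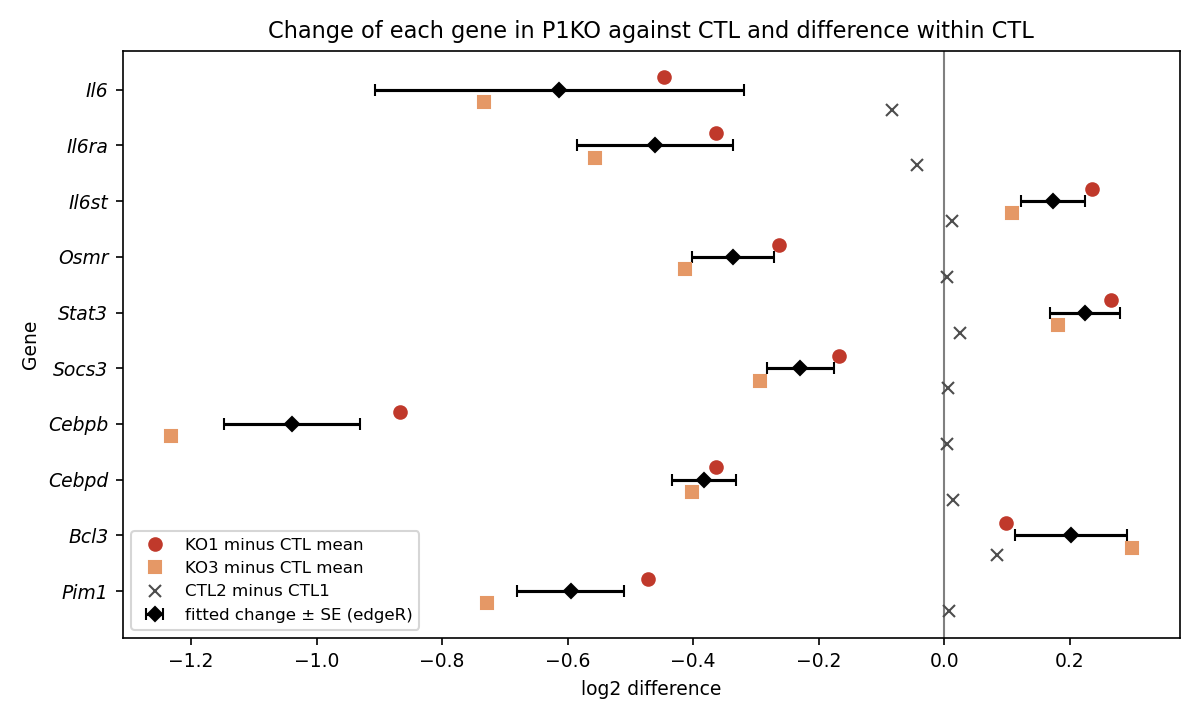
Log2 difference (horizontal axis) for each gene, with diamonds for the fitted change ± SE, circles for KO1 and squares for KO3 against the CTL mean, and crosses for CTL2 against CTL1. Circle and square lie on the same side of 0 for each gene, farthest for Cebpb (-0.87 in KO1 and -1.23 in KO3), and beyond the cross in size; for Bcl3 the cross (0.08) and the circle (0.10) nearly meet.

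The place of the 10 genes among all tested genes was uneven. By log2 fold change, Cebpb lay near the lower end, with Il6 and Pim1 next, where 11.3% and 11.8% of tested genes were lower. The values of Stat3, Bcl3 and Il6st were exceeded by 21.2%, 23.2% and 26.2% of tested genes. Il6 had a slightly larger fitted fall than Pim1 and did not pass, at 1.52 to 2.68 CPM against 125 to 207 CPM for Pim1.

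**Figure D3:**
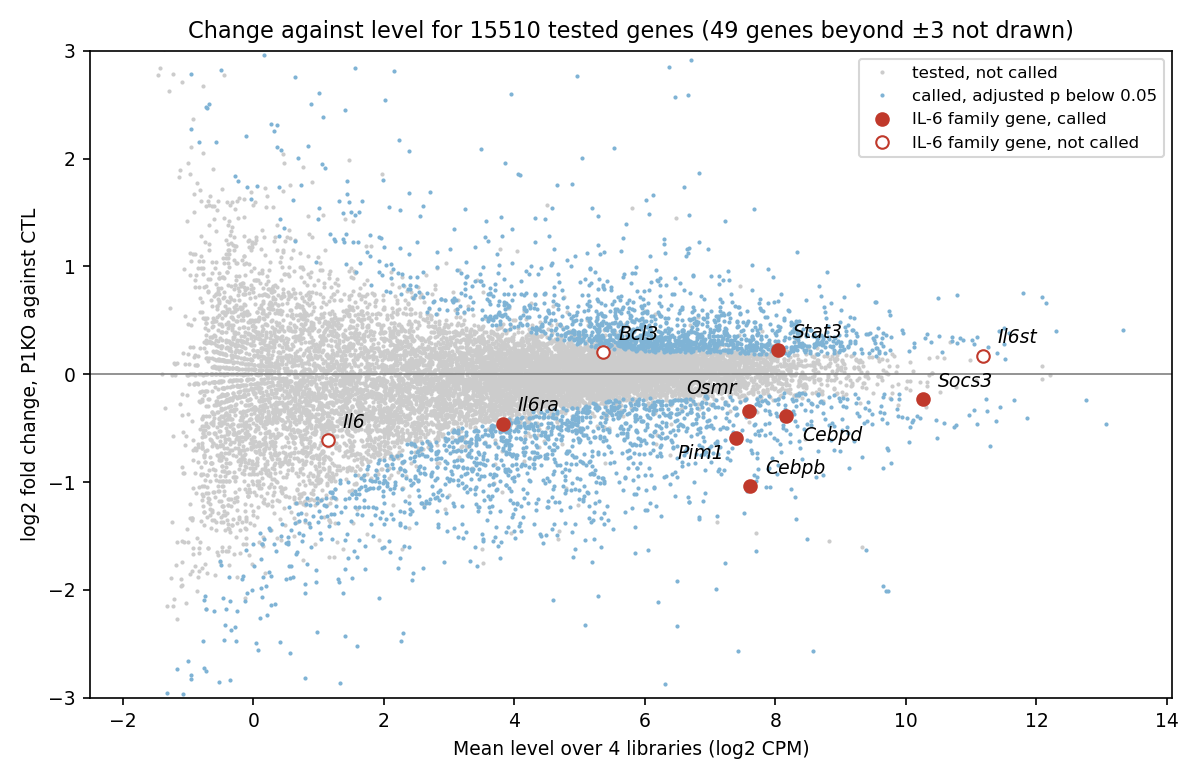
Log2 fold change, P1KO against CTL (vertical axis), against the mean level in log2 CPM (horizontal axis) for the 15510 tested genes, without the 49 genes beyond 3 in absolute value. Filled red circles are the 7 called genes of the pathway and open red circles the other 3. Cebpb is the lowest of the 10 at -1.04, and Il6, at -0.61, is the farthest to the left.

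Ratios between 2 of the genes within a library do not depend on how libraries are scaled. These pairs were chosen after the values were seen. Each ratio restates the changes of 2 genes given above and is not separate evidence. Il6st had higher values in P1KO, which lowered every ratio to it. For each read of Il6st, the CTL libraries held 0.0996 and 0.0990 reads of Osmr, and the P1KO libraries 0.0702 and 0.0692. The mean ratio was 29.8% lower in P1KO, and the libraries of each group nearly coincided. For Il6ra per read of Il6st the values were 0.00767 and 0.00737 in CTL and 0.00495 and 0.00473 in P1KO, a mean 35.6% lower. Both receptor subunits were lower relative to the transducer that they share. Of all tested genes, 73.83% had a lower log2 fold change than Il6st, so most genes were lower relative to it.

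Relative to Stat3, 4 of the 5 induced genes were lower in both P1KO libraries, and Bcl3 was not. Stat3 was itself higher in P1KO, which lowered every ratio to it. Of all tested genes, 78.75% had a lower log2 fold change than Stat3, so most genes were lower relative to it. Socs3 had 5.50 and 5.43 reads per read of Stat3 in the controls and 4.04 and 3.93 in P1KO, a mean 27.0% lower. Pim1 had 0.855 and 0.845 in CTL and 0.509 and 0.452 in P1KO, 43.4% lower. Cebpb had 1.17 and 1.15 in CTL and 0.529 and 0.436 in P1KO, 58.5% lower. Cebpd had 1.35 and 1.34 in CTL and 0.866 and 0.895 in P1KO, 34.3% lower. For Bcl3 the groups overlapped, with 0.155 and 0.161 in CTL and 0.141 and 0.171 in P1KO, and the means were 0.158 and 0.156. The C/EBP genes also changed relative to each other, with 0.869 and 0.863 reads of Cebpb per read of Cebpd in CTL and 0.611 and 0.487 in P1KO. An exact permutation test of 2 against 2 libraries cannot give a two-sided p below 0.333, so no ratio could pass this test.

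The 2 knockout libraries differed in the pathway's genes more than the controls did. From the reads, the 95% exact binomial interval of CTL2 over CTL1 included 1 for all 10 genes, whereas that of KO3 over KO1 excluded 1 for 7 of 10. Over all tested genes the shares excluding 1 were 13.6% and 30.9%, and such a share depends on the reads per gene. In size, the median difference between KO3 and KO1 was 0.17 log2 over the 10 genes and 0.15 log2 over all tested genes. For the 8 of the 10 genes at or above the median level it was 0.14 log2. All tested genes in that range gave 0.09 log2. Between CTL2 and CTL1 the median difference was 0.013 log2 over the 10 genes, against 0.095 log2 over all tested genes. At or above the median level these differences were 0.01 and 0.054 log2. Cebpb was at 0.777 in KO3 relative to KO1 (interval 0.734 to 0.822) and Pim1 at 0.838 (0.791 to 0.887). KO3 was the lower of the pair for 9 genes, against 52% of all tested genes, and Bcl3 was the exception at 1.15 (1.04 to 1.27). KO3 lay farther from the CTL mean than KO1 for 8 genes, against 52.8% of the tested genes whose groups did not overlap. The exceptions were Il6st and Stat3, both higher in P1KO. Such intervals compare libraries and not conditions. Over all tested genes the biological coefficient of variation was 3.23% in CTL and 12.1% in P1KO. Leaving out KO1 gave Cebpb a log2 fold change of -1.23, and leaving out KO3 gave -0.87.

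**Figure D4:**
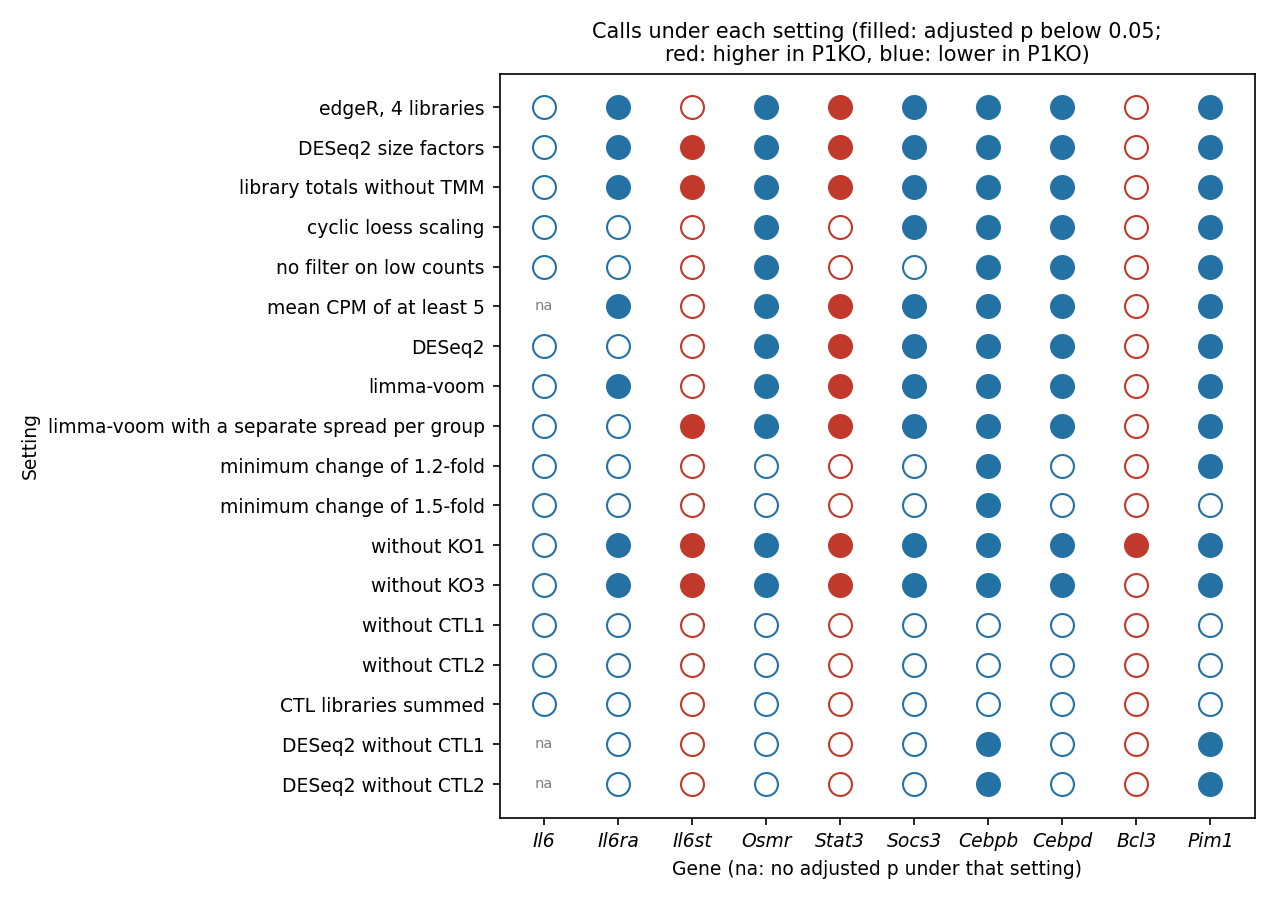
Calls for each gene (horizontal axis) under each setting (vertical axis), with filled circles for an adjusted p below 0.05, red for higher and blue for lower in P1KO. Cebpb, Cebpd, Pim1 and Osmr are filled under every change of scaling, filter or test run on the 4 libraries without a minimum change, and all circles are open in edgeR without CTL1, without CTL2 and with the CTL libraries summed.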

How the data were processed

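The authors deposited 1 table of raw read counts per Ensembl gene, 1 column per library. Per the submitters' processing notes, reads were handled with CASAVA and fastp, and HISAT2 2.0.5, featureCounts 1.5.0-p3 and build mm10 are listed. The sources used here do not give the annotation release or strand setting. For 6 of the 10 genes RefSeq's spans overlap another gene's, so shared reads may be lost or misassigned. All 4 columns were used.

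Counts were analysed with edgeR 4.0.16 in R 4.3.3. After filterByExpr 15510 genes were tested, with TMM scaling and the quasi-likelihood F-test over all 4 libraries without covariates. P-values were adjusted by Benjamini-Hochberg over those genes. Each SE is the absolute log2 fold change over the square root of F. Library differences are on log2 CPM (prior count 2). The script was run on simulated data with the same spread in both groups. The spread of these libraries was unequal, so that run did not test the calls reported here. Alternatives were DESeq2 1.42.0, limma-voom (limma 3.58.1), other scalings and filters, minimum changes and libraries left out. The genes named are the 10 members. Lists of further pathway genes and cell markers could not be matched. Members, lists and tests were chosen with earlier results of these data known.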

Additional observations from a re-analysis of the deposited data

How the results depend on the processing

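All 197 values of single genes under 20 alternatives kept their sign. The groups did not overlap for any of the 10 genes, so leaving out or summing libraries could hardly reverse a sign. Genes called lower numbered 6 and genes called higher 1. Shares of all tested genes are of calls at an adjusted p below 0.05. Counts at an unadjusted p below 0.05 have no such share beside them. Lower calls were 5 with DESeq2, a separate spread per group and cyclic loess, and 4 with no filter, against 7.53%, 8.95%, 9.21% and 3.15% of all tested genes. Higher calls became 2 with DESeq2 size factors, with library totals and with a separate spread per group, as Il6st passed, against 10%, 8.87% and 10.1% of all tested genes. They became 0 in edgeR with no filter and with cyclic loess (added after seeing the data), where 2 had an unadjusted p below 0.05 and 3.1% and 8.03% of all tested genes were called higher. Minimum changes of 1.2-fold and 1.5-fold (added) left 0 higher (0 at an unadjusted p below 0.05). Lower calls were 2 and 1 (4 and 1 at an unadjusted p below 0.05), against 4.67% and 0.98% of all tested genes. With the CTL libraries summed, edgeR called 0 higher and 0 lower, with 0 and 5 at an unadjusted p below 0.05 and 0.98% of all tested genes called. Leaving out 1 library in edgeR gave 0 to 3 higher and 0 to 6 lower. The larger counts came without KO1 and without KO3, where 34.8% and 33.6% of all tested genes were called. In such fits the single library of a group borrowed its spread from the other group. Filtering genes anew with the CTL libraries summed, without CTL1 or without CTL2 (added) again gave 0 higher and 0 lower, with 0 higher and 4 or 5 lower at an unadjusted p below 0.05, and 0.278%, 0.26% and 0.216% of all tested genes called. DESeq2 without CTL1 or without CTL2 (added) gave 0 higher (0 at an unadjusted p below 0.05) and 2 lower. Fewer libraries left the spread to the P1KO pair in these fits.

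No paired analysis was possible because KO3 carries a number that none of the titles has, which leaves any partner among the controls undefined. The titles number libraries within each group and state no pairing of CTL with P1KO libraries, for KO1 or for KO3. Depth limits Il6, whose 27 to 47 reads per library left a ratio between 0.463 and 0.913 from counting error alone. With a mean CPM filter of 5, Il6 was not tested. DESeq2 without CTL1 or without CTL2 gave Il6 no adjusted p.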
